A study of Mus musculus with 6 samples.

Results

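Transcripts of 7 genes of the last step of oxidative phosphorylation were followed in the hearts of 3 mice without Pgc1b and 3 wild-type mice. They encode 6 subunits of the mitochondrial ATP synthase, namely Atp5c1, Atp5o, Atp5j, Atp5j2, Atp5g1 and Atp5g2, and the phosphate carrier Slc25a3. The members were chosen by gene symbol, as every gene of this enzyme and its phosphate carrier that had values, and make up 7 of the 494 genes with values. The 7 genes have 15 probe sets with a single symbol on the array, of which 7 had values, 1 for each gene, and the other 8 were not analysed here. Of the 7 genes, 6 had lower mean signals in knockout hearts, by -0.09 to -0.28 on the log2 scale, and Atp5g2 differed by 0.00. Over all 494 genes 47.6% had a lower mean. No member and no other of the 494 genes passed limma's test adjusted over all genes. Under 1 of 17 alternatives Atp5o passed, as the only gene of the 494.

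The knockout hearts came from mice with a knockout of Pgc1b, named Ppargc1b in current tables, and the control hearts from wild-type mice. Both genotypes shared a mixed sv129 and C57BL/6 background and received no treatment that the labels name. The labels give no age, no sex and no promoter or cell type to which the knockout is limited. Each heart was snap frozen whole, its RNA was amplified and labelled with biotin, and it was read on 1 Affymetrix 3' expression array. The labels call the hearts biological replicates.

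ATP synthase is a rotary motor of the inner mitochondrial membrane. Protons that return to the matrix turn a ring of c subunits in the membrane, the ring turns a central stalk, and the stalk drives ATP formation in the F1 head, which a peripheral stalk holds still. Slc25a3 brings in the phosphate that is joined to ADP. Pgc1b encodes a coactivator that binds nuclear receptors, among them the oestrogen-related receptors, and in heart muscle is known for raising genes of mitochondrial energy supply.

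Signals were deposited on the log2 scale and were not normalized again, so 1 unit is a doubling and differences are knockout minus wild-type. The 6 arrays had medians of 7.45 to 7.61 over 643 gene probe sets. Of 13 heart muscle markers 2 had values, Actc1, the cardiac actin, at 14.12 ± 0.01 in knockout and 14.11 ± 0.03 in wild-type hearts (SD, n = 3 each), and Gja1, a gap junction protein, which differed by 0.00 (-0.10 in its dimmer probe set). The Actc1 signal of wild-type replicate 1, 14.147, was the highest value of the table. Whether a difference could still show at that level was not tested. The Pgc1b transcript was not analysed here, which leaves the genotype labels without that check. Of markers of other cell types, Tie1 of endothelium (1 of 7 listed) differed by -0.08, Fmod and Lox of fibroblasts (2 of 7) by -0.17 each, Car1 and Bpgm of red cells (2 of 5) by 0.13 and 0.31, and Mpo of leukocytes (1 of 6) by 0.10. The dimmer probe set of Bpgm differed by 0.46. The groups overlapped in these 6 genes, with unadjusted p by limma of 0.15 to 0.54, and markers of smooth muscle, fat and skeletal muscle were not analysed here. Mpo, Car1 and Lox averaged 3.59, 4.05 and 4.67 in knockout hearts and 3.50, 3.92 and 4.83 in wild-type hearts. These lie well below the array medians, toward 2.56, the lowest value of the table, so their overlap says little about those cells. In whole hearts, fewer heart muscle cells and less RNA per cell cannot be told apart.

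Promoters are shown for Atp5o, the member with the largest difference, and for Atp5g1 and Atp5g2, which encode the same ring subunit. Each window runs from 250 bases before to 50 bases after the annotated start, 5′ to 3′ on the minus strand, in RefSeq's GRCm38.p6. Capitals mark matches to any of the motifs searched.
Atp5o, chr16:91931581-91931880: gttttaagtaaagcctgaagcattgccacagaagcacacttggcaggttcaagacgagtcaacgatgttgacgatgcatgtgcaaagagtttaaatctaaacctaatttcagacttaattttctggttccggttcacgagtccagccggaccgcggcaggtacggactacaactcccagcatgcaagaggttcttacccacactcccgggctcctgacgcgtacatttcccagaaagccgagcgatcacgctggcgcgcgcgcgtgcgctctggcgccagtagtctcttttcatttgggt
Atp5g1, chr11:96075582-96075881: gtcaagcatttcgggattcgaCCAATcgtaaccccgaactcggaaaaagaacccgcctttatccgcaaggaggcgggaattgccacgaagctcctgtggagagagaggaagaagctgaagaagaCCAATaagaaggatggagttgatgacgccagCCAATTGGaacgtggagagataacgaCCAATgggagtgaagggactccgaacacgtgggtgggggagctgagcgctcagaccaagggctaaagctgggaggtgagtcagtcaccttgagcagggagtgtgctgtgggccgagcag
Atp5g2, chr15:102670998-102671297: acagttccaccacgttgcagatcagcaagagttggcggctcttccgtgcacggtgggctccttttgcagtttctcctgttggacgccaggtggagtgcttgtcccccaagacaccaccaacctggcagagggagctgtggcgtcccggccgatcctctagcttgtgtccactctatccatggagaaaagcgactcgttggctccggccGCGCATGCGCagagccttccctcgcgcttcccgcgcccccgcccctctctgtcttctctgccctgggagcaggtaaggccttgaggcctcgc

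Both strands were searched for the core site of oestrogen-related receptors (AAGGTCA), the general nuclear receptor core within it (AGGTCA), the core of the respiratory factor NRF1 (GCGCATGC), the core of GABP and other ETS factors (CCGGAAG) and the CCAAT box (CCAAT). RefSeq gave 9 windows for the 7 members, with 2 starts each for Atp5c1 and Atp5j. Neither receptor core occurred in any of the 9, against 4.72% of all 32851 windows for AAGGTCA and 16.3% for AGGTCA. The NRF1 core occurred in 1 window, that of Atp5g2, where overlapping matches on both strands run from -42 to -33, against 2.71% of all windows. The ETS core occurred in 2 windows, those of Slc25a3 and of the second start of Atp5j, against 8.86% of all. CCAAT occurred in 4 windows of 3 genes, against 37.4% of all, with 5 matches in Atp5g1, of which 2 overlap, and none in Atp5o or Atp5g2. The 2 windows of Atp5c1 overlap and hold the same CCAAT site, so that site is counted in both. These are matches of letters in short windows and were not tested for binding.

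By position the members are scattered, with Atp5o and Atp5j both on chromosome 16, and Atp5c1, Atp5j2, Slc25a3, Atp5g1 and Atp5g2 on chromosomes 2, 5, 10, 11 and 15. In the gene table the neighbour at the start of Atp5j is Gabpa, the DNA-binding subunit of GABP, and that of Atp5c1 is Kin, a nuclear DNA- and RNA-binding protein. Neither neighbour was analysed here.

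In the F1 head, Atp5c1 (now Atp5f1c, probe set 1416058_s_at) encodes the gamma subunit, the shaft of the central stalk. Its signals were 13.23, 13.28 and 13.21 in knockout hearts, against 13.32, 13.39 and 13.31 in wild-type hearts. The highest knockout heart lay 0.02 below the lowest wild-type heart, so the groups were separate but nearly touched. The difference was -0.10 (95% interval -0.25 to 0.05, adjusted p = 0.618 by limma over 494 genes). After a further quantile normalization it was -0.02. The suffix of its probe set marks probes shared with other transcripts, whose part in the signal was not tested.

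In the peripheral stalk, Atp5o (now Atp5po, probe set 1416278_a_at) encodes the oligomycin sensitivity conferring protein, which joins the stalk to the head. Its signals were 12.69, 12.65 and 12.68 in knockout hearts, against 12.91, 12.94 and 13.00 in wild-type hearts. All 3 knockout hearts lay at least 0.23 below every wild-type heart, the widest gap of the members, and the knockout hearts differed among themselves by less than the wild-type hearts did. The difference was -0.28 (standard error 0.06, 95% interval -0.43 to -0.13), a knockout signal of 82.3% of wild-type (interval 74.2% to 91.3%). Its p by limma was 0.00278 before and 0.301 after adjustment over the 494 genes, and 0.298 after adjustment over all 643 probe sets. With a prior variance that follows the signal level, limma called it (adjusted p = 0.0369), and over its 17 alternatives the adjusted p ran from that value to 0.68.

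Atp5j (now Atp5pf, probe set 1416143_at) encodes coupling factor 6, another part of the same stalk. Its signals were 12.46, 12.56 and 12.49 in knockout hearts, against 12.70, 12.66 and 12.59 in wild-type hearts. The groups did not overlap, with 0.03 between knockout replicate 2 and wild-type replicate 3. The difference was -0.15 (95% interval -0.31 to 0.01, adjusted p = 0.439 by limma), about 90.1% of wild-type, and -0.07 with the spike covariate described under the array controls. Atp5o minus Atp5j within an array was 0.17 ± 0.07 in knockout and 0.30 ± 0.10 in wild-type hearts (SD, n = 3 each), with overlap of the groups.

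In the membrane part, Atp5j2 (now Atp5mf, probe set 1416269_at) encodes subunit f, a small protein beside the proton channel. Its signals were 12.54, 12.57 and 12.59 in knockout hearts, against 12.76, 12.85 and 12.73 in wild-type hearts. Every knockout heart lay at least 0.15 below every wild-type heart. The difference was -0.21 (95% interval -0.37 to -0.06), or 86.2% of wild-type (interval 77.4% to 96.0%), with a p of 0.0136 by limma before and 0.347 after adjustment.

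The c ring is encoded by genes whose mature proteins are the same and whose import sequences differ. Atp5g1 (now Atp5mc1, probe set 1416020_a_at) had signals of 12.86, 12.91 and 12.99 in knockout hearts, against 13.00, 12.97 and 13.07 in wild-type hearts. Knockout replicate 3 lay above wild-type replicate 2, so the groups overlapped, and the difference was -0.09 (95% interval -0.26 to 0.07, adjusted p = 0.649 by limma). Without knockout replicate 1 it was -0.06, and with the spike covariate -0.16.

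Atp5g2 (now Atp5mc2, probe set 1415980_at) had signals of 11.88, 11.92 and 11.89 in knockout hearts, against 11.83, 11.92 and 11.93 in wild-type hearts. The knockout values lay inside the wild-type range. The difference was 0.00 (95% interval -0.15 to 0.16, adjusted p = 0.983 by limma), and its sign turned under 5 of 17 alternatives, centring and quantile normalization among them. Several of the 17 cannot change a difference, as the closing section lists. The interval does not exclude a difference as large as that of Atp5c1 or Atp5g1. Atp5g1 minus Atp5g2 within an array was 1.03 ± 0.07 in knockout and 1.12 ± 0.06 in wild-type hearts (SD, n = 3 each), with overlap of the groups.

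Slc25a3 (probe set 1416300_a_at), the phosphate carrier, has muscle and general forms that arise by choice of exon, which its single probe set with values was not used to separate. Its signals were 13.27, 13.27 and 13.16 in knockout hearts, against 13.41, 13.40 and 13.39 in wild-type hearts. The wild-type hearts lay within 0.02 of each other and every knockout heart was at least 0.12 lower, knockout replicate 3 the lowest. The difference was -0.17 (95% interval -0.33 to -0.01, or 88.9% of wild-type), with a p of 0.0369 by limma before and 0.383 after adjustment. With the Actb 3' minus 5' covariate it was -0.10, with the spike covariate -0.11 and after quantile normalization -0.11.

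**Figure D1:**
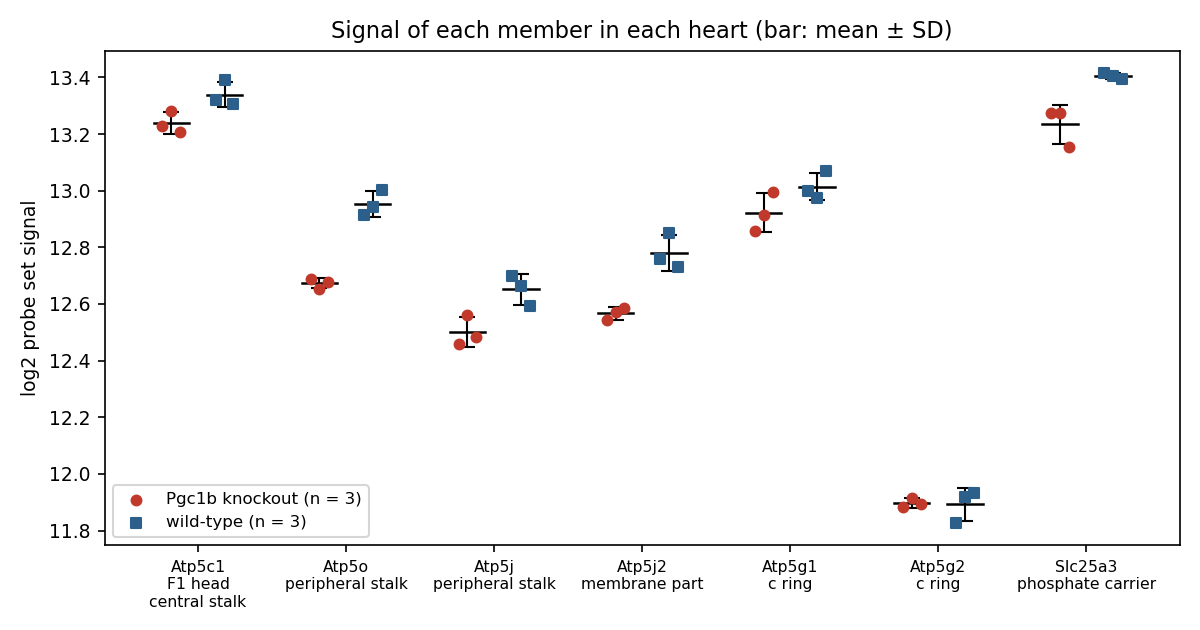
Log2 probe set signal (y axis) of the 7 members (x axis, with their place in the enzyme) in each Pgc1b knockout heart (circles, left) and wild-type heart (squares, right), with mean ± SD of 3 hearts as black bars. Atp5o shows the widest gap between the groups, 0.23, and the groups overlap in Atp5g1 and Atp5g2. Heights of different genes are not comparable, since probe sets differ in brightness.

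Read together, 6 of 7 members had a lower mean in knockout hearts, where 47.6% of all 494 genes did. All knockout hearts lay below all wild-type hearts in 5 of 7, Atp5c1, Atp5o, Atp5j, Atp5j2 and Slc25a3, against 9.92% of all genes. An unadjusted p under 0.05 with a lower mean was reached by 3 of 7, Atp5o, Atp5j2 and Slc25a3, against 5.87% of all genes, or 29, beside 28 that were higher. With arrays centred on their medians the split over all genes was 40 lower and 14 higher, with 4 of 7 members among the lower. At an adjusted p under 0.05 limma called 0 of 7 members and 0.0% of all genes. The median difference was -0.15 over the members and 0.01 over all genes. By rank of the difference from the lowest, Atp5o was 11, Atp5j2 33, Slc25a3 49, Atp5j 64, Atp5c1 115, Atp5g1 128 and Atp5g2 242 of 494.

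**Figure D2:**
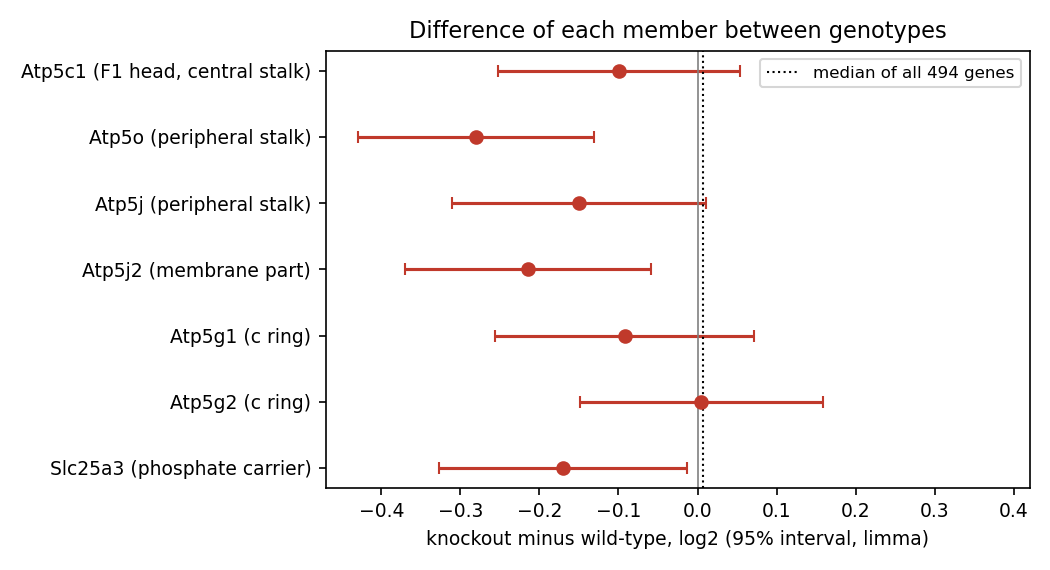
Difference of each member between genotypes (x axis, knockout minus wild-type, log2), as limma's estimate with its 95% interval, and the median of all genes as a dotted line at 0.01. The intervals of Atp5o, Atp5j2 and Slc25a3 lie below 0, and Atp5g2 sits on the median of all genes.

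The difference was spread over all 3 knockout hearts and was not carried by 1 of them. The mean signal of the 7 members was 12.70, 12.74 and 12.71 in knockout hearts, against 12.85, 12.88 and 12.86 in wild-type hearts. Knockout replicate 1 lay below the wild-type mean in 7 of 7 members, and knockout replicates 2 and 3 in 6 of 7. The hearts ranked differently from gene to gene. Knockout replicate 3 was the lowest heart in Slc25a3 and Atp5c1, replicate 1 in Atp5j, Atp5j2 and Atp5g1, and replicate 2 in Atp5o. Without wild-type replicate 2 the count at an unadjusted p under 0.05 was 1 of 7 and not 3, against 8.1% of all genes in that fit (40, and 57 with all hearts), with Atp5j2 at -0.18 and Slc25a3 at -0.17.

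Among the array controls, the groups were separate for the hybridisation spikes and the Actb 3' minus 5' signal and overlapped for the poly-A spikes, the Gapdh 3' minus 5' signal and 18S rRNA. The hybridisation spikes, added to each labelled sample in a fixed amount, averaged 9.55, 9.68 and 9.32 on knockout arrays, against 10.15, 9.84 and 9.69 on wild-type arrays, over 18 probe sets. That is a difference of -0.38 (exact two-sided permutation p = 0.1, the smallest that 3 against 3 allows), with knockout replicate 2 and wild-type replicate 3 almost level. The Actb 3' minus 5' signal, which grows as RNA degrades or is amplified in part, was 0.63, 0.73 and 0.51 on knockout arrays, against 0.75, 0.74 and 0.77 on wild-type arrays (exact permutation p = 0.1). That of Gapdh was 0.08 in both genotypes (exact permutation p = 1). The poly-A spikes stood at 7.14 ± 0.58 on knockout and 7.08 ± 0.43 on wild-type arrays (SD, n = 3 each, exact permutation p = 0.9). The 18S rRNA signal was 6.50 ± 0.18 on knockout and 6.85 ± 0.39 on wild-type arrays (exact permutation p = 0.3). Fitted with the spike level as a covariate, all 7 members had negative differences, -0.33 for Atp5o, -0.22 for Atp5j2, -0.16 for Atp5g1, -0.11 for Slc25a3, -0.07 for Atp5j and Atp5c1 and -0.05 for Atp5g2, and 1 of 7 had an unadjusted p under 0.05, against 10.5% of all genes in either direction. With the Actb covariate Atp5o was at -0.29, Atp5j2 at -0.24, Atp5g1 at -0.13, Atp5j at -0.12, Slc25a3 at -0.10, Atp5c1 at -0.06 and Atp5g2 at 0.02, and the count was again 1 of 7, against 6.88% of all genes. Both covariates were separate between the genotypes and standard errors were larger, so the lower counts do not measure smaller differences alone. The standard error of Atp5j2 was 0.07 without a covariate, 0.10 with the spikes and 0.11 with Actb. That of Atp5o was 0.06, 0.10 and 0.10.

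**Figure D3:**
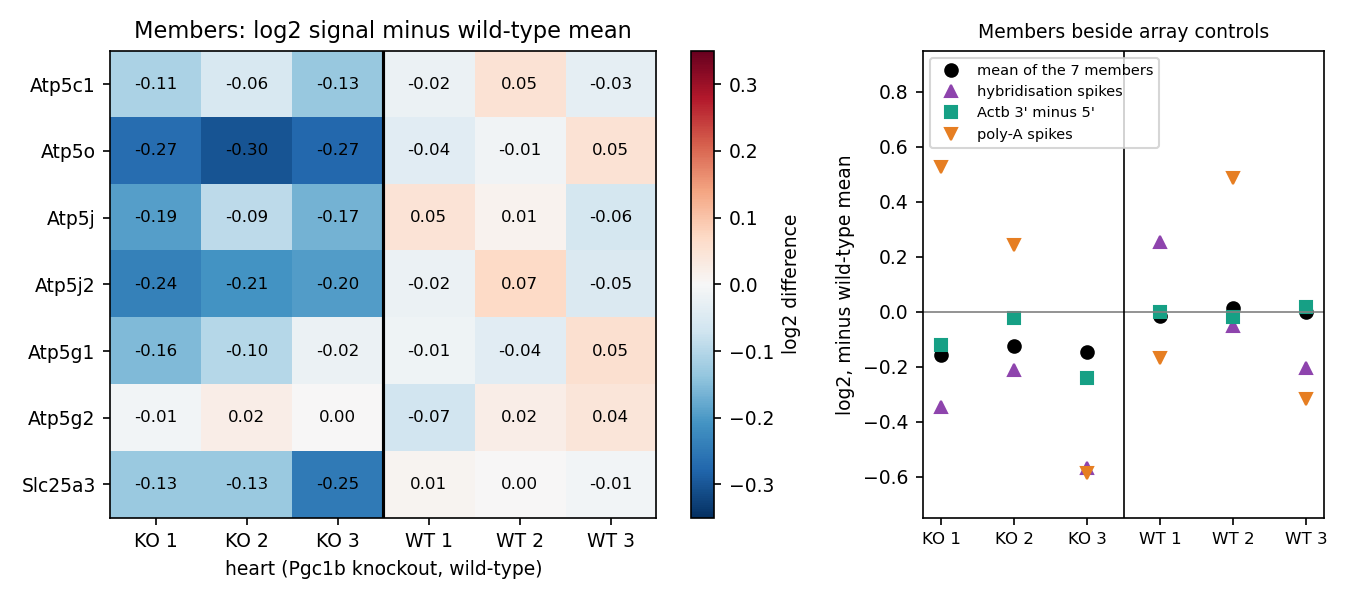
Left, log2 signal of each member in each heart minus the member's wild-type mean, with knockout hearts left of the line and wild-type hearts right of it. Right, the mean of the 7 members, the hybridisation spikes, the poly-A spikes and the Actb 3' minus 5' signal of each array, each minus its wild-type mean (log2). Atp5o runs from -0.30 to -0.27 in knockout hearts, Atp5g2 from -0.01 to 0.02, and the hybridisation spikes are also lower on the knockout arrays.

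All 7 members belong to the 124 brightest of the 494 genes by mean signal, so genes of similar brightness were described beside them. Among the other 117 of these 124 genes 48 had a lower and 69 a higher mean in knockout hearts, with a median difference of 0.02. The groups did not overlap in 11 lower and 23 higher ones. Among the 17 other genes at least as bright as Atp5g2, the dimmest member, 7 were lower and 10 higher, also with a median of 0.02. The members varied little between hearts of a genotype, with a median residual SD of 0.05. It was 0.07 in the 17 genes at least as bright, 0.09 in the other 117 and 0.11 over all genes.

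Ratios within an array are free of a shift shared by all its signals, but not of one that varies with signal level. They set the members against each other. Of 21 pairs of members, 8 had ratios that did not overlap between the genotypes, against 17.6% of the 121771 pairs among all 494 genes, in either direction. The pairs share members and are not independent. Atp5o minus Atp5g2 was 0.81, 0.74 and 0.79 in knockout hearts, against 1.09, 1.03 and 1.07 in wild-type hearts, a difference of -0.29, the largest of the 21. Against Atp5g2, the ratios of Atp5j2, Slc25a3, Atp5j and Atp5c1 also did not overlap, with wild-type hearts higher. Atp5o minus Atp5g1 was -0.25 ± 0.07 in knockout and -0.06 ± 0.03 in wild-type hearts (SD, n = 3 each). Atp5c1 minus Atp5o was 0.57 ± 0.06 in knockout and 0.39 ± 0.07 in wild-type hearts, and Atp5c1 minus Atp5j2 was 0.67 ± 0.05 in knockout and 0.56 ± 0.02 in wild-type hearts. These 8 had an exact permutation p = 0.1, the smallest that this test can give with 3 against 3, and 0.263 after adjustment over the pairs, so the permutation test cannot call them at 0.05. No other test of the ratios was run, and they were not computed under the alternatives. After a further quantile normalization Atp5c1 itself was at -0.015 and Atp5g2 at -0.022. Atp5o, Atp5j2, Atp5j and Slc25a3 were then at -0.24, -0.20, -0.14 and -0.11. The ratios among Atp5o, Atp5j, Atp5j2 and Slc25a3 all overlapped.

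Other genes around the enzyme came from lists of the respiratory chain and its exchange routes. Of the 17 ATP synthase subunit genes listed, 6 had values, and of 8 assembly and inhibitor genes 0 had values. In the list of phosphate and nucleotide exchange and energy transfer, 4 of 17 had values, and all 4 had lower means, against 47.6% of all genes. Beside Slc25a3 these were the outer membrane pores Vdac2 at -0.18 (11.59, 11.67 and 11.72 in knockout hearts, against 11.81, 11.79 and 11.90 in wild-type hearts), Vdac3 at -0.08 and Vdac1 at -0.12, and among the 3 pores only Vdac2 had separate groups. Separate groups with knockout hearts lower occurred in 9.92% of all genes. The adjusted p of Vdac2 by limma was 0.383 over all genes (0.0386 unadjusted).

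Complex I, which pumps protons with electrons from NADH, had 3 of 37 subunits with values. Ndufc1 stood at 11.43 ± 0.05 in knockout and 11.61 ± 0.02 in wild-type hearts (SD, n = 3 each), Ndufv1 differed by -0.12 (-0.18 in its dimmer probe set) and Ndufb11 by -0.02 (-0.01 in its dimmer probe set). Complex IV, the cytochrome c oxidase, had 3 of 14, with -0.32 for Cox8a, -0.14 for Cox5a and -0.10 for Cox6c. In these 2 lists 1 gene each, Ndufc1 and Cox8a, had an unadjusted p under 0.05 by limma, and 0 passed after adjustment. Over all 494 genes 5.87% had such a p with a lower mean, and 0.0% passed after adjustment. The V-ATPase, a rotary pump of the same build that spends ATP to acidify vesicles, had 3 of 18, and both directions occurred, with -0.08 for Atp6v1b2, -0.07 for Atp6v0d1 and 0.19 for Atp6v1h, all with overlap. Complexes II and III and the 14 nuclear regulators of mitochondrial genes were not analysed here.

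Likeness over the 6 hearts was measured as the root mean square distance between profiles, each gene's log2 signals minus its own mean. The 5 genes nearest to the mean of the members were Lrrn1, a leucine-rich repeat membrane protein, at 0.02, Cox6c at 0.02, the spliceosomal protein Snrpc at 0.03, the folate enzyme Mthfd1 at 0.03 and Nsg2, a vesicle protein of neurons, at 0.03, against a median of 0.13 over all other genes. Cox6c, a subunit of cytochrome c oxidase, was the only one of the 5 from the lists used here. Its signals were 13.17, 13.16 and 13.16 in knockout hearts, against 13.24, 13.29 and 13.27 in wild-type hearts. Lrrn1, at 2.81 ± 0.02 in knockout and 2.93 ± 0.01 in wild-type hearts (SD, n = 3 each), lies near 2.56, the lowest value of the table.

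Nearest to Atp5o were Casp6, Mrpl43, Pdcd6, Phb2 and Ciapin1, at distances of 0.04 to 0.05, against a median of 0.18. Mrpl43, a protein of the large subunit of the mitochondrial ribosome, stood at 8.57 ± 0.04 in knockout and 8.86 ± 0.06 in wild-type hearts (SD, n = 3 each). Phb2, a scaffold of the inner mitochondrial membrane, stood at 9.86 ± 0.10 in knockout and 10.14 ± 0.03 in wild-type hearts. Casp6, a caspase, differed by -0.26, Pdcd6, a calcium-binding protein, by -0.21, and Ciapin1, an iron-sulphur protein, by -0.24. The distance favours genes that vary little, and both the members and these genes are ordered by the same genotype difference.

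**Figure D4:**
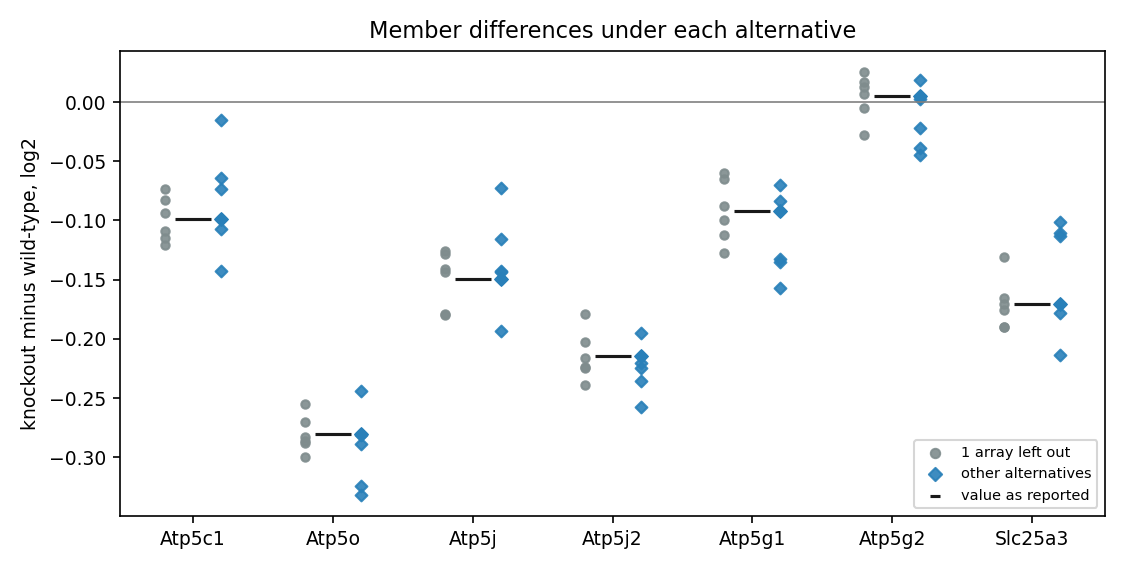
Difference of each member (y axis, knockout minus wild-type, log2) as reported (black bars), with each of the 6 arrays left out in turn (grey circles) and under the 11 other alternatives (blue diamonds). Atp5o stays between -0.33 and -0.24, and Atp5g2 lies on both sides of 0. Several of the other alternatives cannot change a difference and so match the black bar.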

How the data were processed

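The authors deposited log2 signals, 1 column per array. GCOS, Partek and RMA made them, per the submitters' processing notes, with no version, role or order given. RMA in its usual form sets all arrays to a common distribution, which removes a shift shared by all genes. Whether that holds for the deposited values is not known from the notes. Values were present for 707 of 45101 rows, namely 643 gene and 64 control probe sets, and 44394 blank rows were not analysed here. GEO's annotation of the platform, possibly outdated, gave a single gene for 597 probe sets, all matched by gene ID to RefSeq's GRCm38.p6 table, several for 26 and none for 20. They covered 494 genes, each represented by its probe set with the highest mean. No source used here gives the authors' genome build, and none was needed.

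Knockout and wild-type hearts (n = 3 each) were compared in R 4.3.3 using limma 3.58.1 (lmFit, eBayes, two-sided, no covariate, no filter) over all genes, with Benjamini-Hochberg adjustment and a threshold of 0.05. The fits were tested on simulated data, in which the smallest change put in was larger than the difference of any member. Intervals are limma's 95% intervals. Array controls and ratios of members used the exact two-sided permutation test. The number of arrays limits the precision. Named genes were all members, the measured genes of fixed lists and the 5 nearest profiles. The members and lists were chosen with earlier results of these data known. Alternatives are described in the closing section.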

Additional observations from a re-analysis of the deposited data

How the results depend on the processing

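No member passed the adjusted threshold in any fit except Atp5o with a prior variance that follows the level, at -0.28 (adjusted p = 0.0369 over genes and 0.0274 over probe sets), where the number of called members and of called genes was 1 each. In that fit 5 of 7 members and 61 of 494 genes had an unadjusted p under 0.05, against 3 and 57 as reported, and 1 of 7 members had one with the hybridisation spike level or the Actb 3' minus 5' difference as a covariate (52 and 34 genes). The standard errors of the members were larger in the covariate fits. With 1 array left out at a time the count of members was 1 to 3. Over all genes, the 57 with an unadjusted p under 0.05 became 34 with the Actb covariate and lay between 34 and 74 with 1 array fewer, 34 without knockout replicate 2. Centring arrays on the median gave 14 higher and 40 lower, against 28 and 29 as reported, and moved the median of all genes to -0.04 and that of the members to -0.19. Atp5g2 turned to -0.0388 with centring, -0.022 with quantile normalization and -0.0451 with the hybridisation spike covariate, and lay between -0.0281 and 0.0255 with 1 array fewer, below 0 without knockout replicate 2 or wild-type replicate 1. Changes of prior variance, the filter on dim probe sets and the replicate block cannot change a member's difference, only its p. The same holds for the choice among probe sets, since each member had 1 with values. Under all the rest of the 17 alternatives the other 6 members kept a negative sign. The cause was not tested.

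The labels number the hearts 1 to 3 in both genotypes without saying that the numbers pair them. Same-numbered hearts correlated at -0.151, -0.078 and 0.176 in their deviations over genes, and differently numbered hearts at -0.263 to 0.277. The numbers were not used. With the replicate block, Atp5o was at -0.28 (adjusted p = 0.396 by limma) and no adjusted call changed. An unadjusted p under 0.05 was reached there by 48 genes and 2 of 7 members, against 57 and 3 as reported, Slc25a3 being the member lost. The covariates were chosen with results known. Only 494 genes had values, and they are no random sample of the array. Detection calls were not used here.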
